A study of Mus musculus with 2 samples.

Results

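The genes described here encode the proteins of the cytosolic ribosome. They were chosen by symbol alone: Rpl or Rps followed by a digit, or Rplp0, Rplp1, Rplp2 and Rpsa, without the Rps6k kinases. Of the 5238 genes that appear in any of the deposited cluster tables, 81 met this rule, 33 for the small and 48 for the large subunit. RefSeq holds 91 protein-coding mouse genes with such symbols, and the 10 that no table lists are Rpl10l, Rpl31-ps12, Rpl32l, Rpl34-ps1, Rpl37rt, Rpl39l, Rpl3l, Rpl7l1, Rps19bp1 and Rps23rg1. RefSeq also holds 309 pseudogenes whose symbols match the rule, and nothing in the labels or headers says how reads that fit several copies were counted.

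The cells came from the stroma of salivary gland organoids of CD-1 mice at embryonic day 16, to which the age label adds 7 with no unit or meaning given. One library was grown without FGF2, fibroblast growth factor 2, and is called control here. The second was grown with FGF2, at a dose and for a time that the labels do not give. Both were made with 10x Chromium 3′ chemistry, which reads one end of each RNA, and the labels give 5023 captured control cells and 10107 captured FGF2 cells. Each group is 1 library, so no difference below has a replicate, an error or a test, and FGF2 and library cannot be told apart.

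A ribosome has a small subunit, which reads the messenger RNA, and a large subunit, which joins the amino acids. Each subunit is built in the nucleolus from ribosomal RNA and 1 copy of nearly every ribosomal protein, so the cell needs these proteins in matched amounts. Their messenger RNAs are among the most abundant in growing cells, and many begin with a run of pyrimidines that ties their translation to growth signals. A few members have a close paralog with a similar protein, such as Rps27l beside Rps27 and Rpl22l1 beside Rpl22.

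The start regions of 6 members are shown because these genes carry the widest differences below or form the paralog pairs listed in opposite directions. Each runs from 50 bases before to 20 bases after a RefSeq transcript start on GRCm38.p6, so its last 20 bases are transcribed from that start. For Rpl38, Rps27l and Rpl22 the start used lies inside the annotated gene. Those genes begin at 114667818, 66944624 and 152324436, in the same order. Capitals mark a run of at least 10 pyrimidines or the motif CCGGAAG on either strand, and Rps28 and Rps27 hold neither in this window.
Rps28, chr17:33824543-33824612, minus strand: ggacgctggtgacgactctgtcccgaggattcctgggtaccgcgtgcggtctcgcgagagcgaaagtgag
Rpl38, chr11:114668530-114668599, plus strand: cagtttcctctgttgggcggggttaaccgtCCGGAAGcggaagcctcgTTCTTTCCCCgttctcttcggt
Rps27, chr3:90213629-90213698, minus strand: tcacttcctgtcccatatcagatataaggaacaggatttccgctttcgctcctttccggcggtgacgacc
Rps27l, chr9:66946036-66946105, plus strand: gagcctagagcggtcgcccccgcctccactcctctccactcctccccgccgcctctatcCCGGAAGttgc
Rpl22, chr4:152325676-152325745, plus strand: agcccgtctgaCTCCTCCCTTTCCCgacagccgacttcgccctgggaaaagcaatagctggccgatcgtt
Rpl22l1, chr3:28805458-28805527, plus strand: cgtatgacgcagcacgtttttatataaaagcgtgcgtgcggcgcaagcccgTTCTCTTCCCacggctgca

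Among the members, 61 matched an entry of the RefSeq promoter table by symbol, and Rplp1 is not among them. A pyrimidine run of at least 10 stood in this 70-base window in 23 of the 61 (37.7%), against 13.8% of all 27025 promoters. CCGGAAG, on either strand of the 300-base promoter, was found in 24 (39.3%) against 9.12%. This motif is the core bound by ETS-family factors, and these matches describe the letters only.

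The authors' deposited tables list a gene for a cluster only where its average differed from that of all other cells of the library. In both library tables every listed entry has an absolute natural log ratio of at least 0.25, is found in at least 25.1% of the cells on 1 side and has a p under 0.01, which was computed from cells and is not used here as a test. Ratios below are those logs turned into folds, cluster over the other cells, and they compare averages that carry an offset of 1. A gene that is not listed has a smaller or less regular difference and no value. How the averages were scaled is not given, so whether a ratio stands for a gene's part of the RNA counted or for its amount per cell is not known.

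In the control library, 80 members were listed for at least 1 cluster, where 23.2% of the 19070 genes tested were. In the FGF2 library, 79 members were listed, against 15.2% of 20056. The tables share 78 members, with Rpl29 and Rpl35a listed only in the control and Rps27rt only in the FGF2 table. In the integrated table of both libraries no member was listed, although it lists 43.1% of the 2802 genes tested in it, as differences between batch-integrated values. No mitochondrially encoded gene and no gene of the translation lists described below was listed there either, and whether any member was among the genes tested is not known from the table.

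Nearly every cell had a count of nearly every member. Library-wide shares, recovered from the shares listed for several clusters, had a median of 98.3% in the control (lowest 87.1%, Rpl29) and 99.0% in the FGF2 library (lowest 52.7%, Rps27rt). At least 95% of the cells had a count of 75 of 80 members in the control and 76 of 79 in the FGF2 library. The members under 95% in both libraries were Rpl22l1 and Rpl4. The FGF2 share over the control share ran from 0.988 to 1.04 over the 78 members. With shares this close to all cells, a share can show loss of a member in a cluster but hardly a gain, and it says little about levels.

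The direction of the listed entries differed between the libraries. In the control, 197 of 200 entries of members were lower in the cluster than in the other cells (98.5%, against 53.3% over all genes' entries). In the FGF2 library 103 of 170 were lower (60.6%, against 65.3%). There 51 members were higher in some cluster and lower in another, 21 were only lower and 7 only higher. Without FGF2 clusters 10, 13, 15 and 16, whose listed genes were found in few of their cells, 16 FGF2 members were listed, with 8 lower and 12 higher entries. In the control 77 were only lower and 3 (Rpl5, Rps2 and Rps27l) were both. Entries sat in few clusters: 7 of 15 control clusters and 6 of 17 FGF2 clusters had none, among them control clusters 7 and 8 and FGF2 cluster 9, whose leading genes are cell-cycle genes.

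**Figure D1:**
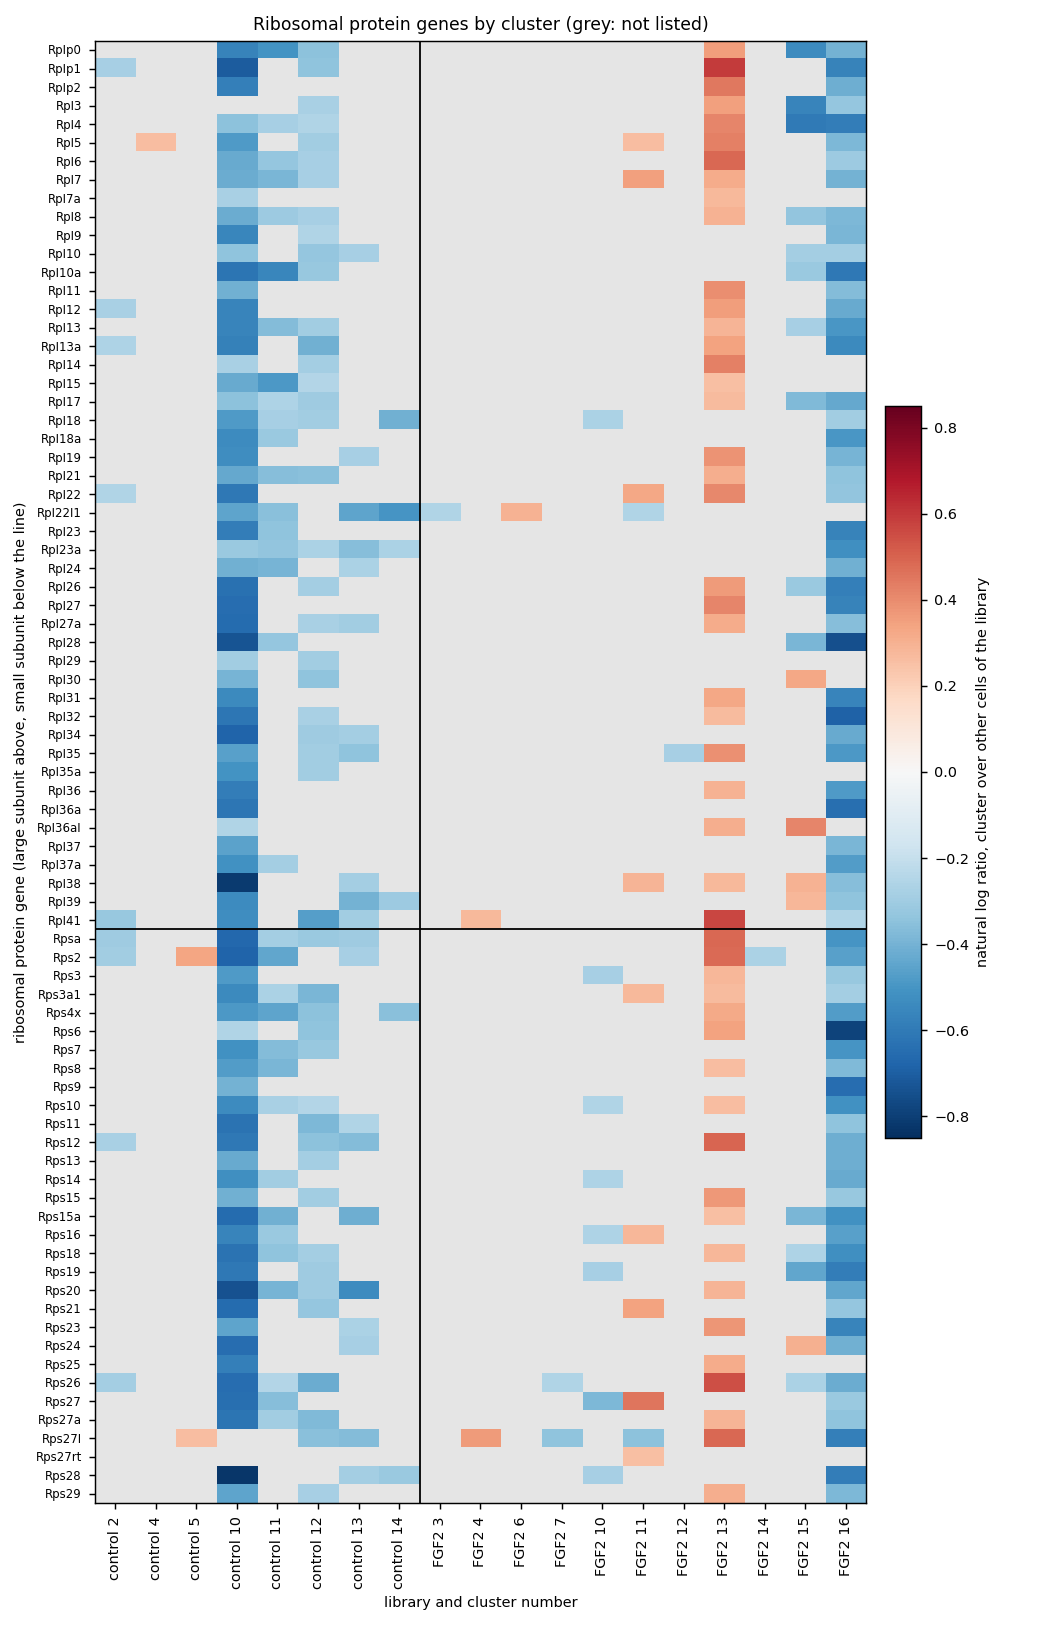
Natural log ratio of 79 of the 81 ribosomal protein genes (rows, large subunit above the line) in each cluster with a listed member (columns, control left and FGF2 right); blue is lower and red higher than the other cells of the same library, grey is not listed. Control cluster 10 and FGF2 cluster 16 are blue over most of both subunits (78 and 70 of all members), FGF2 cluster 13 is red for most (50 of all members), and the other columns hold fewer.

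The fullest pattern was in the Schwann or glial-like cells of both libraries. Control cluster 10 holds 1.15% of the control cells, has Gap43 and Apod among its leading genes, and lists 6 of 7 glial markers higher. FGF2 cluster 16 holds 0.307% of the FGF2 cells, is led by Apod, Atf3 and Postn, and lists 4 of 7, among them Foxd3, Sox10 and Apod. Pdgfra, a fibroblast receptor, had a count in 6.9% of cells of control cluster 10 against 79.1% of the others in the authors' deposited table.

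In control cluster 10, 78 of 80 members were lower and none higher, where 3.34% of all genes tested were listed lower. The 80 are members listed for some cluster, and among all 4419 genes so listed 637 were lower in cluster 10. Shares of all genes tested, here and below, also count genes listed for no cluster. The median ratio of the 78 was 0.586, with a range from 0.438 to 0.777, and the median over all genes listed lower there was 0.644. In FGF2 cluster 16, 70 of 79 members were lower and none higher, where 4.54% of all genes tested were. Among all 3058 genes listed in the FGF2 library, 910 were lower there. The median ratio of the 70 members was 0.651 (range 0.454 to 0.775), beside 0.674 over all genes listed lower. The members not listed in control cluster 10 are Rpl3 and Rps27l. With absolute log ratios of at least 0.5, the lower members numbered 47 and 23.

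Abundant genes pass a table's limits more often than rare ones. Other listed genes found in at least 95% of cells therefore give a closer background. Library shares exist only for genes listed for at least 1 cluster, so widespread genes listed for none are left out. Of 31 such genes in the control library, 13 were lower in cluster 10 (41.9%), beside 74 of the 75 equally widespread members. Of 89 such genes in the FGF2 library, 44 were lower in cluster 16 (49.4%), beside 69 of 76 members. In both libraries the members' count thus lay far above that of equally widespread listed genes. Members and other genes could enter these counts through these same clusters, so the contrast is a description only. With the background set at 90% of cells, a limit chosen after the data were seen, the shares were 39.1% and 43.1%.

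**Figure D2:**
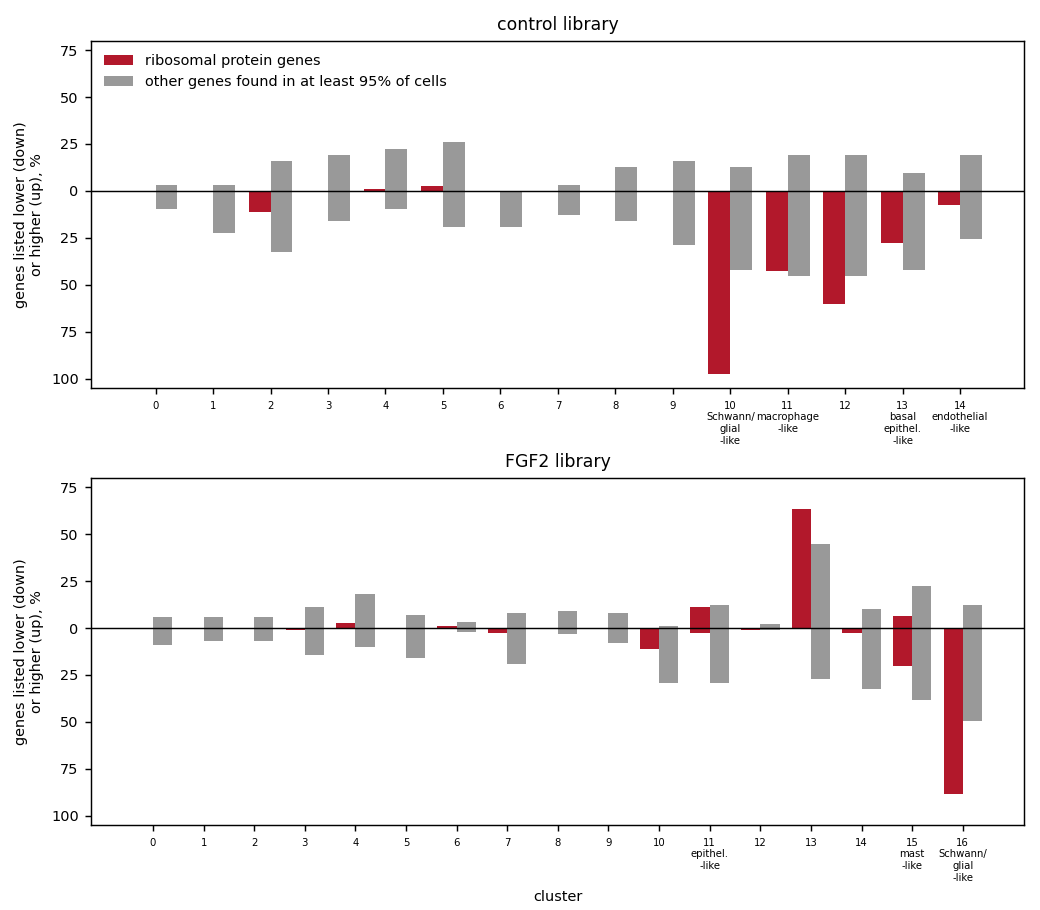
Percent of listed ribosomal protein genes (red) and of other listed genes found in at least 95% of cells (grey) that were higher (up) or lower (down) in each cluster. The control library is above and the FGF2 library below. Listed means listed for at least 1 cluster of the library. The red bar passes far below the grey one in control cluster 10 and FGF2 cluster 16, and is also the longer one in control cluster 12 (down) and FGF2 cluster 13 (up); elsewhere the bars are closer or the grey one is longer.

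By role, both subunits took part. Control cluster 10 had 31 of 33 small-subunit members lower (median ratio 0.560) and 47 of 48 large-subunit members (0.590). FGF2 cluster 16 had 30 of 33 (0.638) and 40 of 48 (0.656). All 10 proteins of the head of the small subunit were lower in both clusters. So were all 3 proteins of the stalk, the flexible arm of the large subunit that recruits elongation factors: Rplp0 (0.568 in control, 0.669 in FGF2), Rplp1 (0.493, 0.568) and Rplp2 (0.559, 0.659). Rpl5 and Rpl11, which carry the 5S RNA into the large subunit and can bind Mdm2 when ribosome assembly fails, stood at 0.619 and 0.666 in control and at 0.684 and 0.691 in FGF2.

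The lowest ratios in control cluster 10 belonged to Rps28, at 0.438, and Rpl38, at 0.444. Rps28 sits at the exit of the messenger RNA channel, and Rpl38 is known for skeletal patterning defects when mutated in mice. In FGF2 cluster 16 Rps28 stood at 0.556 and Rpl38 at 0.695. Rps20 (0.476 and 0.642), Rpl34 (0.505 and 0.651), Rps2 (0.506 and 0.631) and Rpsa (0.513 and 0.605) followed, with the control ratio given first. Rpl28 was close to equal in the libraries, at 0.479 and 0.473.

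The lowest ratio of FGF2 cluster 16 belonged to Rps6, at 0.454, the small-subunit protein phosphorylated by S6 kinase. In control cluster 10 Rps6 was only just listed, at 0.777, the highest ratio of that cluster. In the authors' deposited table, a share of 61.3% of cells of FGF2 cluster 16 had an Rps6 count, against 95.8% of the others. Rps9 stood at 0.525 against 0.671 in the control, and Rpl4, a large-subunit protein that reaches into the exit tunnel, at 0.555 against 0.704. With the FGF2 ratio first, Rpl32 (0.504 and 0.539), Rpl36a (0.527 and 0.540) and Rpl10a (0.543 and 0.536) were closer between the libraries.

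The 2 clusters were each other's best match between the libraries, by a Spearman correlation of 0.79 over 450 listed genes that are no members. Members included, control cluster 10 listed 1604 genes and FGF2 cluster 16 listed 1073, and the 450 are the other genes listed in both. The clusters shared 68 lower members, 87.2% of the control list of members and 97.1% of the FGF2 list. Of these, 57 had the lower ratio in the control. Ranking within the cluster hardly carried over: across the 68 members, which share their libraries and cells, Spearman's rho was 0.19 and Pearson's r 0.10. These members are all listed lower, whereas the 450 genes were taken in either direction. The narrower range of the members can itself lower a correlation, so these values cannot be set against the 0.79. Members lower only in control included Rpl14, Rpl15, Rpl22l1, Rpl29, Rpl30, Rpl35a, Rpl36al, Rpl7a and Rps25, and those lower only in FGF2 were Rpl3 and Rps27l.

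**Figure D3:**
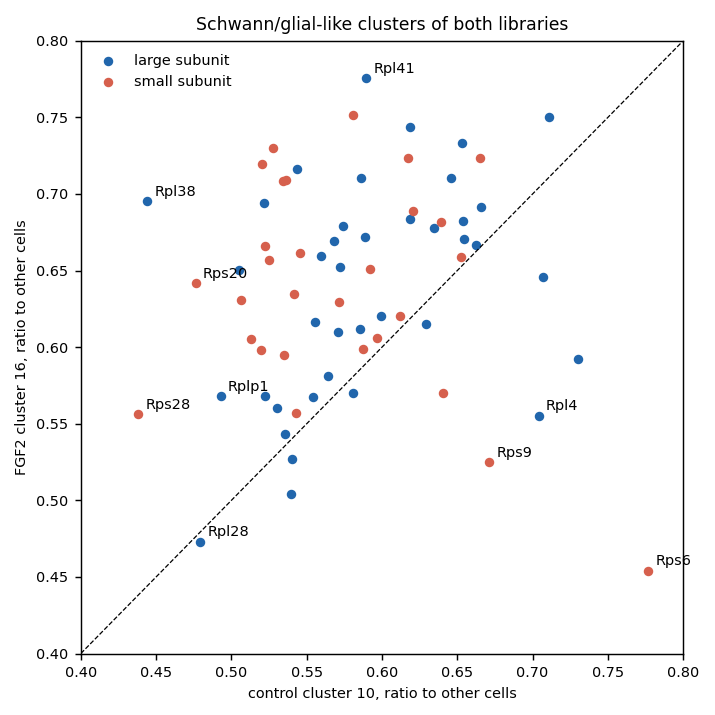
Ratio of each of the 68 shared ribosomal protein genes in control cluster 10 (x axis) and FGF2 cluster 16 (y axis), cluster over other cells, with the line of equal ratios dashed; blue is large and red small subunit. Points above the line (57) are lower in control, and Rps28 and Rpl38 at the left and Rps6 at the lower right stand at the edges of the cloud.

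Shares of cells went opposite ways in the pair. In the authors' deposited table for control cluster 10 the members' median share was 100% in the cluster against 98.3% outside, and 63 of 78 members had a count in all its cells. In the table for FGF2 cluster 16 the median was 93.5% against 99.0%, with 57 of 70 members in a smaller share of the cluster's cells and Rpl4 lowest at 51.6%. All genes listed for FGF2 cluster 16 were found in a median of 16.1% of its cells against 62.7% of the others, while those of control cluster 10 had 56.9% against 59.0%. Mitochondrially encoded genes parted in the same way: 9 were higher in control cluster 10 (median ratio 1.42) and 6 were lower in FGF2 cluster 16 (0.577). Malat1, a nuclear RNA, was 2.0-fold and 3.29-fold higher. The part of depth, RNA quality or nuclear RNA in the lower members was not tested.

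**Figure D4:**
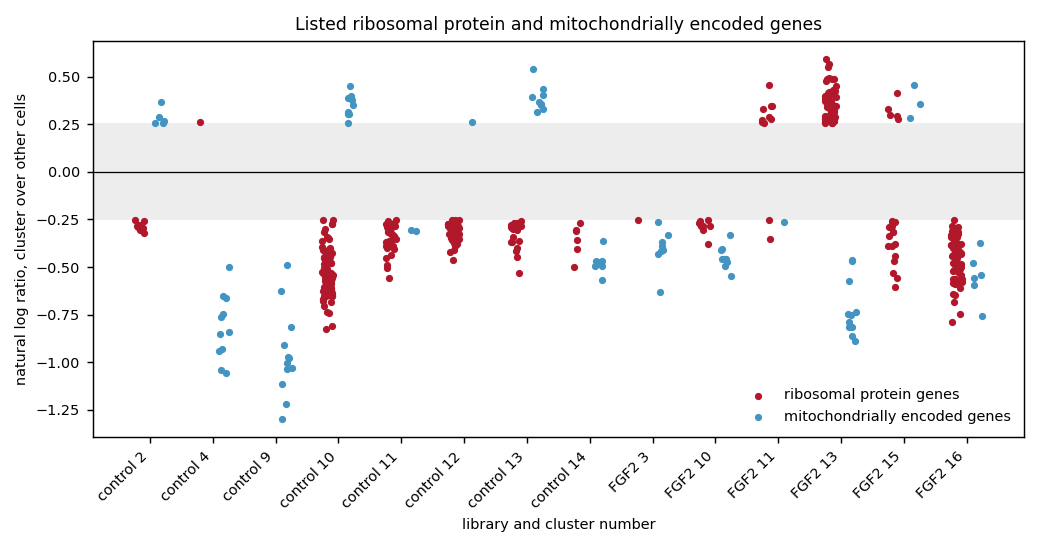
Natural log ratio of each listed ribosomal protein gene (red) and mitochondrially encoded gene (blue) in 14 clusters of both libraries, jittered sideways; the grey band holds differences too small to be listed. The 2 kinds of gene lie on opposite sides in control clusters 2, 4, 10, 12 and 13 and FGF2 cluster 13, and both lie below in control clusters 11 and 14 and FGF2 clusters 3, 10 and 16.

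Some other genes of protein synthesis were listed lower in these 2 clusters too. Among all listed genes, 637 of 4419 were lower in control cluster 10 and 910 of 3058 in FGF2 cluster 16. Whether the lists below exceed those shares was not tested. Of 24 translation factors, 19 are listed in the control table, with 8 lower and 2 higher in cluster 10 (median 0.704). Of the 24, 20 are listed in the FGF2 library, with 5 lower and none higher in cluster 16 (0.666). Eef1b2, which recharges the elongation factor that brings transfer RNA, was lower in both, at 0.476 and 0.314. Of 10 ribosome-associated and ubiquitin-fusion genes, 9 are listed in the control table, with 5 lower in cluster 10 (median 0.653), and 8 in that of FGF2, with 7 lower in cluster 16 (0.639). None of them was higher in these clusters.

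Fau is made as a fusion of a ubiquitin-like part with a ribosomal protein, and its symbol keeps it outside the rule. Fau stood at 0.521 in control cluster 10 and 0.653 in FGF2 cluster 16. Rps27a, the ubiquitin fusion inside the rule, stood at 0.536 and 0.709. Rack1, a scaffold on the small subunit, stood at 0.653 and 0.639, and Npm1, a nucleolar chaperone, at 0.633 and 0.542. Of 27 ribosome biogenesis genes, none was listed in control cluster 10, and 2 were lower in FGF2 cluster 16, Nop58 and Ncl (0.736). Mitochondrial ribosomal protein genes serve the separate ribosome of that organelle. Of 29 listed in the control table, 3 were higher and none lower in cluster 10. Of 21 listed in the FGF2 table, 12 were lower and none higher in cluster 16.

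The second broad pattern had the opposite sign. FGF2 cluster 13, which holds 1.41% of the FGF2 cells and is led by Acta2, Tagln and Actb, had 50 of 79 members higher and none lower, where 1.51% of all genes tested were listed higher. Among all 3058 genes listed in the FGF2 library, 302 were higher there. The median ratio of the 50 members was 1.41, from 1.29 to 1.81, beside 1.54 over all genes listed higher there. Highest were Rplp1 (1.81), Rpl41 (1.76), Rps26 (1.73), Rps12, Rpl6, Rpsa and Rps27l (all 1.63) and Rps2 (1.61). Both subunits took part, with 20 of 33 and 30 of 48, as did all 3 stalk proteins.

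Widespread listed genes in general were often higher in FGF2 cluster 13. They were 40 of the 89 other listed genes found in at least 95% of cells (44.9%), beside 49 of 76 members. Most genes listed there were in few of its cells, with a median of 12% of its cells against 66.5% of the others in the authors' deposited table. The members' own shares were 97.9% against 98.8%. All 11 listed mitochondrially encoded genes were lower (median 0.471), and Malat1 was at 0.050 of its level in the other cells. Of the translation factors 7 were higher and 2 lower, and of the ribosome-associated genes 4 were higher and none lower. What part these losses of other RNAs have in the higher members was not tested.

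FGF2 cluster 10, 3.51% of the cells, is led by Gm42418, Xist and Malat1, RNAs from ribosomal RNA loci or kept in the nucleus. There 9 of 79 members were lower and none higher, where 0.987% of all genes tested and 29.2% of the widespread other genes were lower. The widespread members had 9 of 76 lower, a smaller share than those other genes. Among all 3058 genes listed in the FGF2 library, 198 were lower there. Of the 9, 8 belong to the small subunit, among them Rps27 (0.683), Rps28, Rps3, Rps19, Rps16, Rps14 and Rps10, and the other is Rpl18. Their median share was 79.7% against 99.7% in the authors' deposited table. All genes listed for the cluster had 14.4% against 70.8%, and 9 mitochondrially encoded genes were lower (0.633). Control cluster 4, with 10.6% of the cells and led by AY036118, Gm42418 and Gm26917, listed 1 member, Rpl5, higher at 1.30 though in 83.4% of its cells against 98.9%. In that cluster 0.608% of all genes tested were higher, listed genes were in a median of 10.9% of its cells against 84.8% of the others, and 11 mitochondrially encoded genes were lower (0.430).

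Control clusters 11, 12 and 13 also listed members lower. Cluster 11, macrophage-like with 7 of 8 markers and 1.05% of the cells, had 34 members lower, where 5.29% of all genes tested were. Of the widespread genes 45.2% were lower there, beside 32 of the 75 widespread members, which is no more than that background. The 34 had a median ratio of 0.710, beside 0.689 over all genes listed lower there. The lowest were Rpl10a (0.573), Rplp0 (0.602) and Rpl15 (0.612).

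Cluster 12, with 0.828% of the cells and led by Ccl2, Mt1 and Hmox1, had 48 members lower (median 0.743), where 2.02% of all genes tested and 45.2% of widespread genes were. Of the widespread members 45 of 75 were lower, above that share. The median ratio over all genes listed lower there was 0.716. With the background set at 90% of cells, 27.8% of the other genes were lower there. Rpl41, the smallest ribosomal protein, was lowest at 0.628, and Rps26, which contacts the messenger RNA ahead of the start codon, stood at 0.657. In the same cluster Ncl, a nucleolar protein needed for ribosomal RNA synthesis, was higher at 1.41. Cluster 13, basal epithelial-like with 4 of 5 markers and 0.517% of the cells, had 22 members lower. There 3.16% of all genes tested and 41.9% of widespread genes were lower. Beside the latter stood 20 of the 75 widespread members, a smaller share. Rps20 was lowest there, at 0.587, and 9 mitochondrially encoded genes were higher (1.45).

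The endothelial-like control cluster 14 (7 of 7 markers, 0.298% of the cells) listed 6 members lower, where 3.86% of all genes tested were. None of these entries had an authors' adjusted p under 0.05. The 6 were Rpl22l1 (0.606), Rpl18 (0.665), Rps4x (0.700), Rps28, Rpl39 and Rpl23a. Among widespread genes 25.8% were lower there, beside 5 of the 75 widespread members, a smaller share. In that cluster 7 mitochondrially encoded genes were lower (0.621), and listed genes were in a median of 26.7% of its cells against 62.5% of the others.

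Control cluster 2 is the largest cluster with lower members, at 13.9% of the cells. It is led by Spp1, Cxcl13 and Saa3 and lists 4 of 7 fibroblast markers higher and 2 lower. It had 9 members lower, where 0.75% of all genes tested and 32.3% of widespread genes were. The 9 are of 75 widespread members, a smaller share than among the widespread other genes. The 9 spanned 0.727 to 0.776: Rpl41, Rpsa, Rps2, Rps26, Rplp1, Rps12, Rpl12, Rpl13a and Rpl22, in rising order. Rpl41, Rplp1, Rps26, Rpsa and Rps2 are also among the highest in FGF2 cluster 13. In the same cluster 5 mitochondrially encoded genes were higher (1.31). Control clusters 0, 1, 3 and 6 listed no member.

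Mast-like cells, found as FGF2 cluster 15 (0.640% of the cells, 7 of 7 markers), split the members. There 16 were lower, where 5.1% of all genes tested were, and 5 were higher, where 0.912% were. Among widespread genes 38.2% were lower and 22.5% higher, more than among the widespread members (15 and 5 of 76). Lower were Rpl4 (0.547), Rpl3, which reaches toward the catalytic centre (0.572), Rplp0 (0.587) and Rps19 (0.643), among others. Higher were Rpl36al (1.51), Rpl30 (1.39), Rps24 (1.35), Rpl38 (1.34) and Rpl39 (1.32). Rpl4 had a count in 54.7% of the cluster's cells against 94.6% of the others in the authors' deposited table. The genes listed for this cluster were in a median of 21.9% of its cells against 62.8% of the others. Of the translation factors 10 were lower and none higher, with Eef2 at 0.563 and Eef1a1 at 0.571, while Fau was higher at 1.54.

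Epithelial-like cells of the FGF2 library, cluster 11 (2.88% of the cells, 6 of 8 markers), had 9 members higher, where 1.24% of all genes tested and 12.4% of widespread genes were. They were Rps27 (1.58), Rpl7, Rps21, Rpl22 (1.39), Rpl38 (1.33), Rps16, Rps3a1, Rpl5 (1.30) and Rps27rt (1.30). Of the widespread members 8 of 76 were higher, no larger a share than among the widespread other genes. The 2 lower members were the paralogs Rps27l (0.704) and Rpl22l1 (0.777). They are 2.53% of the 79 members, near the 2.51% of all genes tested and below the 29.2% of widespread genes that were lower. All 11 were found in a smaller share of the cluster's cells than of the others, and all genes listed there were in a median of 28.5% of its cells against 58.8% of the others.

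The 2 paralogs and their partners were listed in opposite directions in that cluster. Rps27 and Rps27l encode nearly the same zinc-finger protein of the small subunit, and Rps27l is a p53 target. In FGF2 cluster 11 Rps27 was at 1.58 and Rps27l at 0.704, with a Rps27l count in 64.9% of its cells against 96.1% of the others in the authors' deposited table. Rpl22, which sits on the large subunit and binds several other RNAs, stood at 1.39 and Rpl22l1 at 0.777, the latter in 62.5% of cells against 94.0%. Rps27rt, a retrocopy of Rps27 whose reads may be shared with its parent, was at 1.30, in 33.7% of cells against 53.3%.

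Rps27l had the widest reach in the FGF2 library, with 5 clusters listed. It was higher in clusters of both libraries led by contractile genes, control cluster 5 (led by Acta2, Actg2 and Tagln) at 1.30 and FGF2 cluster 4 (led by Acta2, Tagln and Thbs1) at 1.44. These 2 clusters are each other's best match. Control cluster 5 also listed Rps2 higher at 1.40, where 0.855% of all genes tested were higher, and FGF2 cluster 4 listed Rpl41 at 1.31, where 0.982% were. Rps27l was lower in control clusters 12 (0.701) and 13 (0.693) and in FGF2 clusters 7 (0.710) and 16 (0.560), and Rps27 was not listed in control clusters 5, 12 and 13 or in FGF2 clusters 4 and 7.

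Rpl22l1 was lower in control clusters 10 (0.640), 11 (0.702), 13 (0.639) and 14 (0.606), and in FGF2 cluster 3 (0.776), which is led by Ero1l, Il33 and Fam162a and where 0.409% of all genes tested were lower. In FGF2 cluster 6, led by Cavin2, Cemip and Ccl2, it was higher at 1.34 and the only member listed, where 0.284% of all genes tested were higher. Rpl36al was higher in FGF2 clusters 13 (1.37) and 15 (1.51), where Rpl36a was not listed. In control cluster 10 both were lower, Rpl36a at 0.540 and Rpl36al at 0.775. Further entries in other FGF2 clusters were Rps26 in cluster 7 (0.776), Rpl35 in cluster 12 (0.756) and Rps2 in cluster 14 (0.763), and genes listed lower there made up 0.658%, 0.0199% and 2.38% of those tested.

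**Figure D5:**
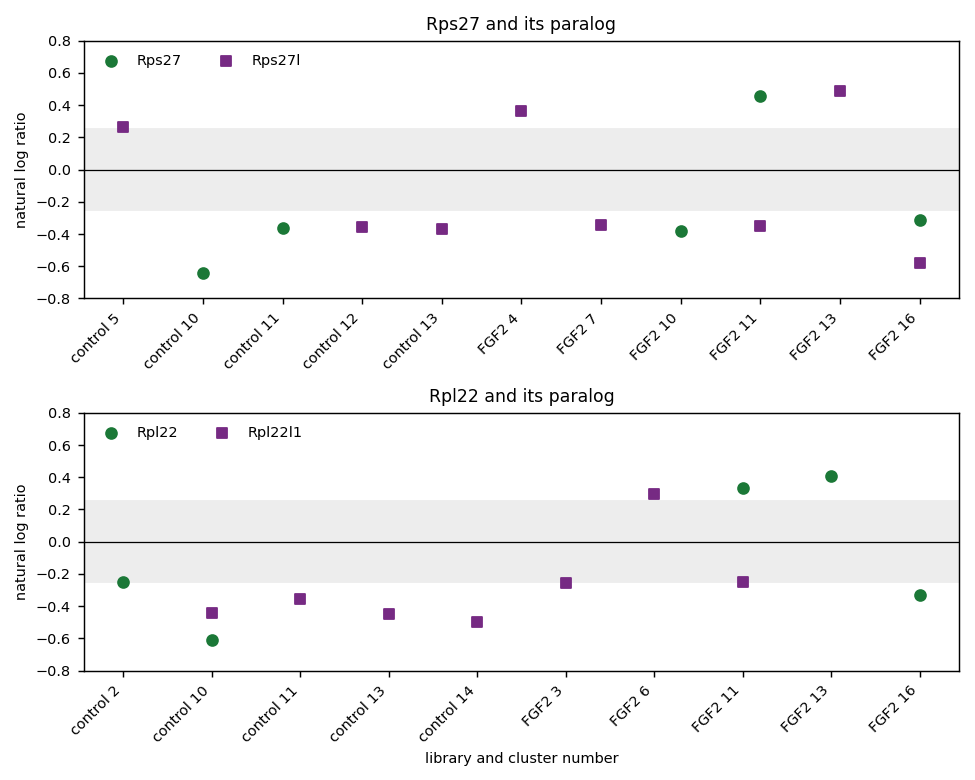
Natural log ratio of Rps27 and Rps27l (above) and of Rpl22 and Rpl22l1 (below) in every cluster that lists either, circles for the first gene and squares for its paralog; the grey band holds differences too small to be listed. In FGF2 cluster 11 both circles lie above 0 and both squares below, while Rps27l is listed above 0 without Rps27 in control cluster 5 and FGF2 clusters 4 and 13.

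Between the libraries, matched clusters other than the glial pair shared few members. Control cluster 13 and FGF2 cluster 11, the epithelial match, listed 22 and 11 and shared 3: Rps27l and Rpl22l1 lower in both, and Rpl38 lower in control (0.750) and higher in FGF2 (1.33). Control cluster 11 and FGF2 cluster 14 shared only Rps2, lower in both. Control cluster 12 listed 48 and its match, FGF2 cluster 1, none, but with Pearson's correlation these clusters were not matched. Genes that are no members were shared too: 411 by the epithelial match, where 1341 and 753 genes of all kinds were listed. Control cluster 11 and FGF2 cluster 14 shared 416 such genes (1318 and 781 listed), and control cluster 12 and FGF2 cluster 1 shared 72 (862 and 144). Whether members were shared less often than other genes was not tested. The other matches, control clusters 1 and 8 with FGF2 clusters 2 and 9, listed no member in either library. By Pearson's correlation only, control cluster 4 matched FGF2 cluster 13. They listed 1 and 50 members, with Rpl5 higher in both. Control cluster 6 and FGF2 cluster 8, also matched by Pearson's only, listed none. Since each ratio is taken against the other cells of its own library, a difference between the libraries can lie in the cluster or in the cells around it.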

How the data were processed

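Single-cell RNA was counted with Cell Ranger 4.0 on mm10, per the submitters' processing notes. Per gene and cluster the authors deposited a log ratio, read here as a natural log (averages implied by different clusters varied by a median of 0.00174% in the control with it, against 0.0488% with base 2), fractions of cells with a count inside and outside the cluster, and p-values, raw and adjusted. Per the file headers nothing states the normalization. The ratio of adjusted to raw p gave the number of genes tested. Counts, barcodes and cells themselves were not analysed here, so depth and shared barcodes are not known.

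Folds are the exponent of the log. Cluster parts were solved by least squares from non-members' shares (sums 100.04% and 99.95%), tested on simulated data, and gave library shares. Clusters were matched as mutual best Spearman correlations over at least 50 non-members. The background of listed genes found in at least 95% of cells was added after the data were seen. Groups are 1 library each, so no test was run. Named were, per table, the 8 largest entries, the 5 members in most clusters, those against a cluster's majority, paralogs, and the 3 largest of each list; other members named were chosen after their values were seen. Members and lists were chosen with earlier results of these data known. Python 3.11.15, pandas 2.3.3, numpy 2.4.6 and scipy 1.17.1 were used. A few genes are counted but not reported here by name.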

Additional observations from a re-analysis of the deposited data

Results flagged for a closer look

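Rpl38 was the 1 member listed in opposite directions in matched clusters of the libraries. Its natural log ratio was -0.288 in the basal epithelial-like control cluster 13 and 0.287 in the epithelial-like FGF2 cluster 11. Both lie near the limit of 0.25 for being listed, each comes from 1 library, and the difference was not tested. In the authors' deposited tables Rpl38 had a count in all cells of the control cluster and in 97.9% of those of the FGF2 cluster.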

How the results depend on the processing

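No paired analysis was possible because each group is 1 library. Over 35 values and counts, 66 of 97 alternatives stayed within their limits and 31 moved. With absolute natural log ratios of at least 0.5, 48 control and 27 FGF2 members stayed listed, with 51 and 26 lower and 0 and 3 higher entries. By cluster this left 47 members in control cluster 10, 2 in 11, 0 in 12 and 1 in 13, and 3 in FGF2 clusters 13 and 15 and 23 in 16. The medians then were 0.587 in control clusters 11 and 13, 1.76 in FGF2 cluster 13 and 0.568 in FGF2 cluster 16. Entries with an authors' adjusted p under 0.05 left 7 members in control cluster 13 (median ratio 0.690). Without clusters whose listed genes have a median share under 25%, FGF2 members listed numbered 16, with 8 lower and 12 higher entries, so the balance of FGF2 entries turned from mostly lower (103 of 170) to mostly higher. Pearson's correlation matched 8 pairs of clusters and Spearman's 7, with 6 in both. Read with base 2, medians were 0.690, 0.789, 0.814 and 0.815 in control clusters 10 to 13 and 1.27 and 0.742 in FGF2 clusters 13 and 16. Levels against the library mean were 0.693 in control cluster 10 (0.589 with the natural log), 0.743 in FGF2 cluster 16 (0.651) and 0.843 in control cluster 2 (0.780). The tables hold no cell numbers or counts per cluster, so no interval is given, and the share of any cluster in 1 library has no replicate.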
